A study of Mus musculus with 2 samples.

Results

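The cells described here are 700 interferon-high C1q macrophages of the PyMT-M mammary tumour library, 14.2% of its 4919 C1q macrophages (95% exact binomial interval 13.3 to 15.2%) out of 7476 barcodes in that library and 12496 in both libraries. They were chosen from their own counts of unique molecular identifiers (UMIs, each standing for 1 captured RNA molecule). Barcodes with under 200 genes or over 10% mitochondrial UMIs were dropped first, leaving 7357. A cell then needed at least 50 UMIs per 10000 from C1qa, C1qb and C1qc, no UMI of Cd3d, Cd3e or Cd3g, and fewer than 3 UMIs of Mki67, Top2a, Birc5 and Cdk1. Interferon-high cells are those of the 4919 with at least 15 UMIs per 10000 from 6 interferon-stimulated genes together: Isg15, Ifit1, Ifit2, Ifit3, Rsad2 and Cmpk2. They are set against 2105 cells of the same gates in which this 6-gene sum was 0, and the remaining 2114 cells, above 0 and under 15, are called intermediate.

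Both libraries hold immune cells (CD45+, DAPI-) sorted from mammary gland tumours grown in mice from an injected tumour cell line, PyMT-M for 1 library and PyMT-N for the other. PyMT is the usual short name of the polyoma middle T oncogene, used to make mouse mammary tumours, and the labels do not explain the letters M and N. Tumours were taken 4 weeks after injection, at a diameter of 0.7 to 1 cm, and the cells were profiled with 10x Genomics 5′ chemistry. No treatment, host strain or age is given, and neither is the number of tumours behind a library, so each line counts as 1 sample, cells are not replicates of it, and no test or p-value is given; every interval is a 95% interval that covers counting error only.

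Type I interferons bind a receptor of IFNAR1 and IFNAR2 chains and act through a complex of transcription factors that includes STAT2 and IRF9 and binds interferon-stimulated response elements in the promoters of antiviral genes. Interferon gamma acts through its own receptor and induces guanylate-binding proteins, immunity-related GTPases and the chemokines Cxcl9 and Cxcl10. C1q is the first component of the classical complement pathway and is made largely by tissue macrophages, and interferon-responding macrophages are a recurrent state in single-cell studies of tumours.

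The sequences before the start sites of 5 genes show what the genes of the sum do and do not have in common with the leading genes outside it. Isg15 and Ifit3 are the largest parts of the 6-gene sum, Ifit3b is the near-copy of Ifit3, Cxcl10 had the largest ratio of the genes outside the sum, and Ccl12 is a given marker of these cells. Each is the 250 bases before the RefSeq start site (GRCm38.p6), written 5′ to 3′ on the gene's own strand, with capitals marking GAAA followed after any 2 bases by a further GAAA, on either strand and with overlapping matches included; this is the core of the interferon-stimulated response element. Isg15 lies at chr4:156200819-156201068 (minus strand), Ifit3 at chr19:34583279-34583528 and Ifit3b at chr19:34607707-34607956 (plus strand), Cxcl10 at chr5:92348890-92349139 (minus strand) and Ccl12 at chr11:82101595-82101844 (plus strand).
Isg15: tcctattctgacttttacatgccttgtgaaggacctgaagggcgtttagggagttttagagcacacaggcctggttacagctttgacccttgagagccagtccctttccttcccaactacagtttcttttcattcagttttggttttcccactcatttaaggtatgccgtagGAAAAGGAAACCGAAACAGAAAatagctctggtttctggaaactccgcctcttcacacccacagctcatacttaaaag
Ifit3: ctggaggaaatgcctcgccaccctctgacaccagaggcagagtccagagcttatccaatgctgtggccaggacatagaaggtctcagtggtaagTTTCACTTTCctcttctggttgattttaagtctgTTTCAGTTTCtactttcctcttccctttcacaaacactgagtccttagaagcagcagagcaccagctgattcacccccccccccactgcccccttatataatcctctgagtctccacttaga
Ifit3b: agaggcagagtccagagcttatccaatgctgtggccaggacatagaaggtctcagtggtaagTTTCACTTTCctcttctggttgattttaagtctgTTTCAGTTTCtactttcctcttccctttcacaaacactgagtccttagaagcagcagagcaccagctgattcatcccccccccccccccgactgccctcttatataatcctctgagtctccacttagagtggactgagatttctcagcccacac
Cxcl10: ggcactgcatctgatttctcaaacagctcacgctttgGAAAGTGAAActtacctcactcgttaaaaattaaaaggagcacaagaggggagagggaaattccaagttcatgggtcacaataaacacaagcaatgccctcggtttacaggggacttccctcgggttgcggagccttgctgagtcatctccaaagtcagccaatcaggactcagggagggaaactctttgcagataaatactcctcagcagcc
Ccl12: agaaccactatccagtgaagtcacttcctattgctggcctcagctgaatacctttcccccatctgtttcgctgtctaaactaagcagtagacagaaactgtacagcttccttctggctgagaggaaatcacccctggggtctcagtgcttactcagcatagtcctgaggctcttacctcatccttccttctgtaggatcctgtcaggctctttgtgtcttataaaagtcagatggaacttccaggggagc
Isg15 held 3 overlapping matches starting 78, 72 and 66 bases before its start site, Ifit3 held 2 at 156 and 122 bases, and Cxcl10 held 1 at 213 bases. In Ifit3b the same pair of matches stood at 188 and 154 bases, in almost the same surrounding sequence as in Ifit3, and Ccl12 held none. The window from 250 bases before to 50 after the start held the motif for 4 of the 6 genes of the sum (Isg15, Ifit1, Ifit3 and Rsad2), for 4 of the 12 matched genes among the 15 named below as higher, and in 1131 of all 32851 RefSeq windows (3.44%). A match is a description of letters and no evidence of binding. The same count over all genes at least 2-fold higher is void, because fewer than 80% of them (164 of 208) matched a window.

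The C1q genes gated every cell of all 3 groups, so their levels describe the cells and are no check of the label. Interferon-high cells had a median of 295 C1q UMIs per 10000, against 292 in intermediate cells and 282 in cells with the sum at 0. C1qa was at 7708 CPM (counts scaled to 1000000 UMIs) in interferon-high cells and 7532 CPM in sum-at-0 cells, and C1qb at 11661 and 11463 CPM. Outside the gates, Csf1r, the receptor of the macrophage growth factor CSF1, was at 712 and 802 CPM in the same order, the macrophage surface protein gene Adgre1 at 264 and 282 CPM, and Ptprc, which encodes the sorted antigen CD45, at 349 and 318 CPM. The submitters' cell type label is tumour, whereas Csf1r and Adgre1 are macrophage markers and Ptprc an immune cell marker. The interferon-high cells held 4047675 UMIs in all, with a median of 5117.5 per cell, against 5683.5 in intermediate and 3986 in sum-at-0 cells. Median genes per cell were 1822, 1999 and 1586, and median mitochondrial shares 2.10, 2.15 and 2.42%, again from interferon-high to sum-at-0 cells. A sum of 0 is easier to reach in a shallow cell, so levels are also given as the share of cells with a UMI after each cell was thinned to 2000 UMIs, which leaves out 93 interferon-high and 468 sum-at-0 cells. The libraries shared 60 barcodes, and 2 interferon-high cells had a barcode also present in PyMT-N.

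Within the sum, Isg15, a ubiquitin-like protein that is attached to other proteins, supplied 8850 UMIs, which is 53.1% of the 6-gene UMIs of the interferon-high cells, and 98.6% of these cells held one. Ifit3, of the family of Ifit proteins that bind foreign RNA, supplied 19.4% and was seen in 82.4% of the cells. Rsad2, which encodes the antiviral enzyme viperin, gave 10.7% of UMIs, and Ifit1, Ifit2 and the nucleotide kinase gene Cmpk2 gave 7.57, 5.90 and 3.30%. All 6 genes were found together in 136 cells, 5 in 135 and 4 in 155, while 57 cells held only 1 of them. The number found follows depth: the median was 1499 UMIs in cells with 1 gene and 6892 in cells with all 6. The sum was reached with 10 or more UMIs in 502 cells, with 5 to 9 in 120, with 2 to 4 in 70, and with a single UMI in 8 cells.

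The 6 genes were high together even when only 1 of them set the groups. With groups set on Isg15 alone, a setting in which the other 5 genes are not used, Rsad2 was at 527 CPM in the 435 cells past the threshold and 8.48 CPM in the 2493 cells without Isg15. Ifit3 was at 936 and 21.4 CPM, Ifit1 at 360 and 7.25 CPM, Ifit2 at 261 and 6.99 CPM, and Cmpk2 at 158 and 3.06 CPM in the same order. The log2 ratios of these 5 genes lay between 5.03 and 5.80.

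The 6-gene sum ran over a wide range. Interferon-high cells had a median of 29.9 per 10000 with quartiles of 21.1 and 50.7 and a highest value of 229. Just outside the threshold lay 261 cells at 10 to 15 per 10000 and just inside it 155 at 15 to 20, so the members are those past a point on a score with many cells near it, and whether they form a separate type was not tested. Ccl12, the chemokine MCP-5 that acts on the receptor CCR2, was at 335 CPM at a sum of 0, then 409, 613 and 930.0 CPM up to a sum of 15. It then stood at 1016 CPM from 15 to 25, 1620.2 CPM from 25 to 50, 2657 CPM from 50 to 100 and 6572 CPM in the 46 cells at 100 or more. Cxcl10, which draws T and NK cells through CXCR3, was at 12.4, 30.6, 46.6, 138, 272, 713, 1738 and 4598 CPM over the same 8 bins. Both were higher in each bin than in the one before, and so was Irf7 (176 CPM at 0, 2724 CPM in the top bin). Ly6e and Ifi27l2a, other interferon-stimulated genes, flattened early: Ly6e was at 3337 CPM at a sum of 0, 4776 CPM from 15 to 25 and 4901 CPM in the top bin.

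**Figure D1:**
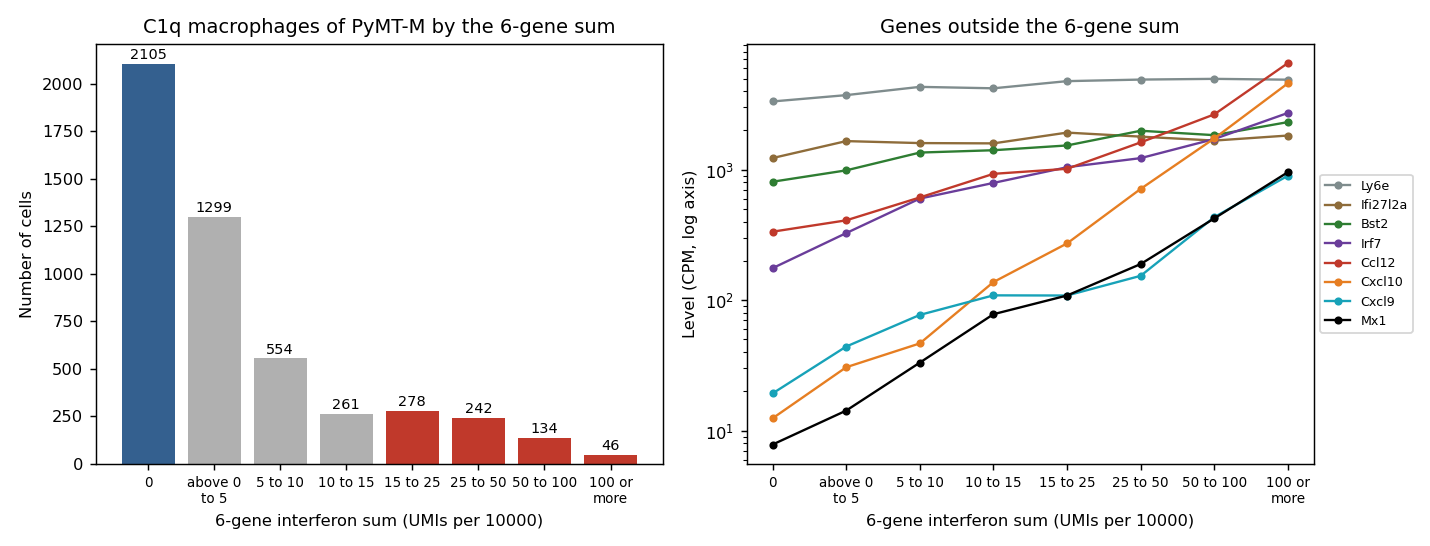
Left, number of PyMT-M C1q macrophages by the 6-gene sum (UMIs per 10000), with sum-at-0 cells in blue, intermediate cells in grey and interferon-high cells in red. Right, level (CPM, log axis) of 8 genes outside the sum in the same bins: Cxcl10 runs from 12.4 to 4598 CPM and Ccl12 from 335 to 6572 CPM, while Ly6e levels off near 4901 CPM.

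Over all genes with at least 100 UMIs in the interferon-high and sum-at-0 cells together, 208 of 8053 (2.58%) were at least 2-fold higher in interferon-high cells and 47 (0.584%) at least 2-fold lower, on the scale log2(CPM + 1). The median log2 ratio over all 8053 was -0.07. The rule used this contrast, so these shares and the values below describe the cells and test nothing. Intermediate cells against sum-at-0 cells had 39 such higher genes (0.485% of 8047) and 1 lower gene (0.0124%).

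Cxcl10 had the largest ratio outside the sum, at 954 CPM in interferon-high, 45.4 CPM in intermediate and 12.4 CPM in sum-at-0 cells (log2 ratio 6.15). After thinning, 33.9% of interferon-high cells and 1.77% of sum-at-0 cells held a Cxcl10 UMI. Ifit3b, a near-copy of Ifit3 whose reads may be split with it, followed at 204 and 3.64 CPM in interferon-high and sum-at-0 cells (5.47). Mx1, a GTPase that blocks influenza and related viruses, was at 245 and 7.82 CPM (4.80), and Usp18, the protease that removes ISG15 and restrains the interferon receptor, at 147 and 7.61 CPM (4.11). The oligoadenylate synthetase genes Oas3 (59.5 and 3.11 CPM), Oasl1 (198 and 16.4 CPM) and Oasl2 (270.0 and 28.7 CPM), whose family senses double-stranded RNA or limits interferon production, had ratios of 3.88, 3.52 and 3.19. Others of the 15 were Slfn1 (3.95), the DNA-sensor family gene Ifi213 (3.86), the exonuclease gene Isg20 (3.55), the GTPase gene Ifi47 (3.42) and Ifi44 (3.33). Cxcl9, the other CXCR3 chemokine, was at 231 and 19.3 CPM (3.52), and 75% of its UMIs came from 70 of the 700 cells. Clu and Igfbp7 also met the naming rule, at ratios of 4.76 and 3.47, but 96.2% of the Clu UMIs and 95.1% of the Igfbp7 UMIs of the interferon-high cells were in 1 cell each.

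Ccl12, given as a marker and outside the sum, was at 1861 CPM in interferon-high, 510.3 CPM in intermediate and 335 CPM in sum-at-0 cells, with a log2 ratio of 2.47 (interval 2.41 to 2.53). It was seen in 59.8% of thinned interferon-high cells and 23% of thinned sum-at-0 cells. Sum-at-0 cells thus held Ccl12 more often than they held Cxcl10.

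**Figure D2:**
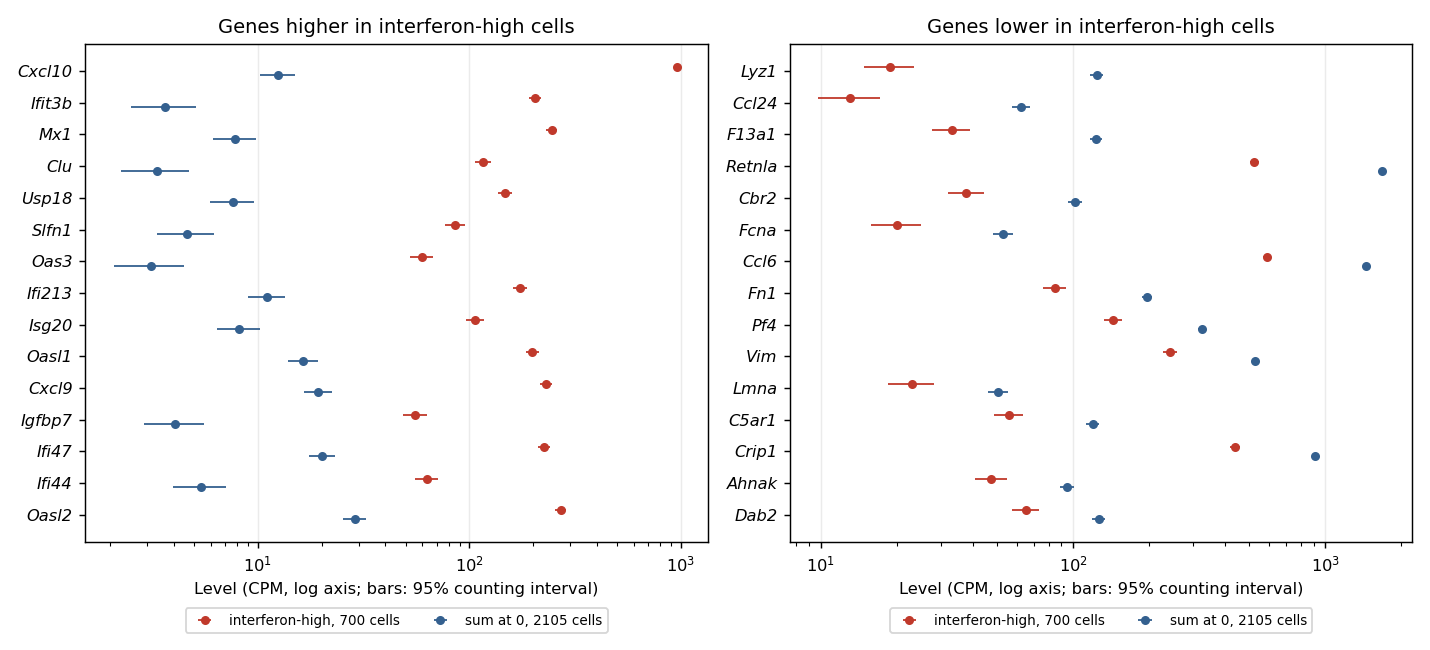
Level (CPM, log axis) of the 15 named genes that were higher and the 15 that were lower in the 700 interferon-high cells (red) than in the 2105 sum-at-0 cells (blue) of PyMT-M, with bars for 95% counting intervals that ignore variation between cells. Cxcl10 is at 954 and 12.4 CPM and Lyz1 at 18.8 and 124 CPM in interferon-high and sum-at-0 cells.

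Among antiviral effectors of type I interferon, a list of 54 genes from which the 6 genes of the sum were left out, 52 were in the matrix, 48 had 100 UMIs and 44 of these were at least 2-fold higher in interferon-high cells, none lower. Their median log2 ratio was 2.19, against -0.07 over all genes, of which 2.58% were at least 2-fold higher. The list summed to 193 UMIs per 10000 in interferon-high, 114 in intermediate and 84.5 in sum-at-0 cells. Rtp4 (387 and 50.04 CPM in interferon-high and sum-at-0 cells, 2.93) and Zbp1, a sensor of Z-form nucleic acid (254 and 33.3 CPM, 2.89), were among the larger. Members with high levels had smaller ratios: Ly6e at 4867 and 3337 CPM (0.54), Ifi27l2a at 1827 and 1229 CPM (0.57), the tether gene Bst2 at 1799 and 809 CPM (1.15) and the entry inhibitor gene Ifitm3 at 2242 and 806 CPM (1.47). Ifitm2 was the exception in direction, at 226 and 366 CPM (-0.69).

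The ISG15 conjugation genes, which attach ISG15 to proteins or take it off, were all 5 higher and 3 of them by 2-fold (2.58% over all genes). Herc6, the mouse ISG15 ligase, was at 65.0 and 8.04 CPM in interferon-high and sum-at-0 cells (2.87) and the conjugating enzyme gene Ube2l6 at 128 and 19.3 CPM (2.67), while the activating enzyme gene Uba7 was at 59.3 and 30.4 CPM (0.94). Of 13 measured Irf and Stat genes, 3 were at least 2-fold higher (2.58% over all genes). They included Irf7, the factor that amplifies type I interferon production (1333 and 176 CPM, 2.91), and Stat2 (98.6 and 15.9 CPM, 2.56). Irf9, a partner of STAT2, was at 67.9 and 39.3 CPM (0.77), Irf1 at 95.6 and 51.9 CPM (0.87), and the myeloid lineage factor Irf8 at 313 and 310 CPM (0.02). Irf7 was also the gene most like the 6-gene sum from cell to cell, with a Spearman correlation of 0.46 over 4237 cells thinned to 2000 UMIs, then Ifitm3 (0.36), Rtp4 (0.34), Ifit3b (0.33) and Cxcl10 (0.32); the cells come from 1 library and the correlations describe it.

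Sensors of viral RNA and DNA were higher in part: 5 of 13 measured genes by 2-fold (2.58% over all genes), with a list median of 0.60. The RNA helicase genes Dhx58 (81.5 and 12.9 CPM in interferon-high and sum-at-0 cells, 2.57), Ddx58, which encodes RIG-I (89.4 and 15.2 CPM, 2.48), and Ifih1, which encodes MDA5 (132 and 29.3 CPM, 2.13), led. The interferon receptor chain genes did not share this: Ifnar1 was at 94.4 and 105 CPM (-0.15), Ifnar2 at 322 and 335 CPM (-0.06) and Ifngr1 at 229 and 327 CPM (-0.52).

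Ifnb1, the gene of interferon beta itself, was rare and concentrated in these cells. Among the 7357 PyMT-M cells past the filters, 18 held 29 Ifnb1 UMIs. Of these, 12 were interferon-high cells, with 22 UMIs (1.71% of 700, interval 0.889 to 2.98%), 5 were intermediate cells with 6 UMIs (0.237%), and 1 was a cell outside the C1q macrophages. No sum-at-0 cell held one; 3 counts of 2105 cells, 0.143%, is the limit this sets on cells with an Ifnb1 UMI (exact upper bound 0.175%), and it does not limit the share of cells that express the gene. The 12 cells were looked at after this count was seen. Their median 6-gene sum was 51.7 per 10000 (lowest 28.6, highest 156), against 29.3 in the other interferon-high cells, and their median depth 5903 against 5095.5 UMIs. Relative to the other interferon-high cells they also held more Ccl4 (19439 against 7812 CPM), Tnf (2046 against 398 CPM), Il12b (764 against 62.9 CPM) and Cxcl10 (2196 against 931 CPM), and less Cxcl9 (95.5 against 233 CPM). These levels rest on 12 cells and are given without intervals, so the smaller ones can stand for few UMIs. No Ifna1, Ifna2, Ifna4, Ifna5 or Ifna6 UMI was found in interferon-high or sum-at-0 cells. Ifng, made by T and NK cells, had 0 UMIs in interferon-high cells (up to 0.429% of 700 cells with a UMI by the same limit of 3 counts, exact upper bound 0.526%), 9 in intermediate and 6 in sum-at-0 cells, and 302 UMIs in 190 cells outside the C1q macrophages.

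Genes known for their response to interferon gamma were high as well. Of 18 measured, 15 were at least 2-fold higher in interferon-high cells (2.58% over all genes), with a median log2 ratio of 2.05. Iigp1 and Tgtp2, GTPases that act on vacuoles of intracellular parasites, were at 49.4 and 1.71 CPM (4.21) and 35.6 and 2.04 CPM (3.59) in interferon-high and sum-at-0 cells. Socs1, the feedback inhibitor of JAK signalling, was at 97.6 and 10.9 CPM (3.05), Gbp2 at 88.2 and 14.5 CPM (2.53), and the antibody receptor gene Fcgr1 at 535 and 226 CPM (1.24). Several genes of this list also respond to type I interferon, so it does not separate the interferons. The MHC class I list differed less: all 20 genes were higher, 5 of them 2-fold (2.58% over all genes). The peptide transporter gene Tap1 was at 208 and 62.6 CPM (1.72) and its transactivator Nlrc5 at 32.1 and 8.57 CPM (1.79), but H2-D1 at 2104 and 1877 CPM (0.16). MHC class II differed little, with Cd74 at 30049 and 27590 CPM (0.12) and the 4-gene sum of H2-Aa, H2-Ab1, H2-Eb1 and Cd74 at a median of 449 per 10000 in interferon-high, 443 in intermediate and 419 in sum-at-0 cells. Cd40, the co-stimulatory receptor counted with the MHC class II list, was at 143 and 32.9 CPM (2.09). It was the only 2-fold member of the 10 measured in that list (2.58% over all genes). Cd274, which encodes the checkpoint ligand PD-L1, was at 57.3 and 13.6 CPM (1.997). It was the 1 gene of 8 measured checkpoint ligand genes to reach 2-fold (2.58% over all genes).

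**Figure D3:**
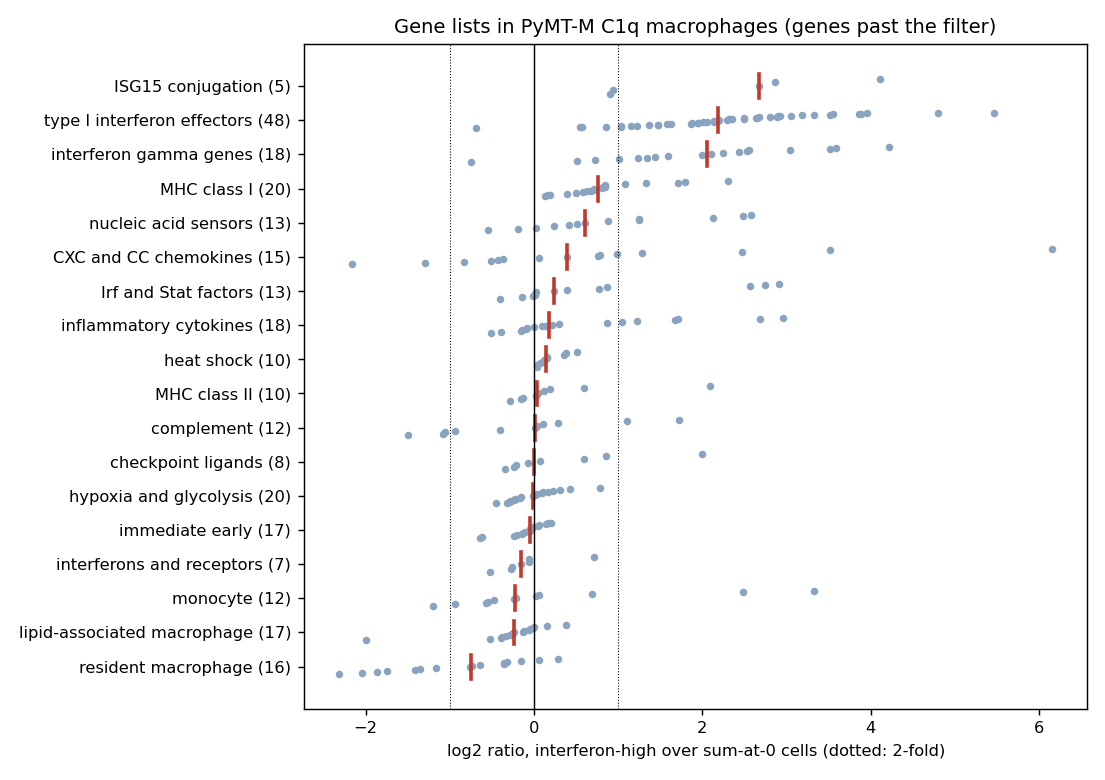
Log2 ratio of interferon-high over sum-at-0 cells for every list gene past the 100-UMI filter (points) with the list median (red line); the number past the filter is in brackets. The medians of the ISG15 conjugation (2.67), type I effector (2.19) and interferon gamma (2.05) lists lie past the 2-fold line, and that of the resident macrophage list is at -0.74.

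Chemokine genes differed among themselves: of 15 measured, 4 were at least 2-fold higher in interferon-high cells and 2 lower (2.58 and 0.584% over all genes). Besides Cxcl10, Cxcl9 and Ccl12 the fourth was Ccl5, which draws T cells, at 2108 and 864 CPM in interferon-high and sum-at-0 cells (1.29). Ccl4 was at 8023 and 4046 CPM (0.99), Ccl3 at 1452 and 860 CPM (0.76) and the CCR2 ligand Ccl2 at 558 and 323 CPM (0.79), whereas Ccl8 was at 363 and 468 CPM (-0.37). The summed Ccl3 and Ccl4 level had a median of 45.4 per 10000 in interferon-high, 26.5 in intermediate and 8.30 in sum-at-0 cells. Cxcl10 was found in 280 and Cxcl9 in 201 of the 700 cells, and 102 cells held both, 36.4% of those with Cxcl10 and 50.7% of those with Cxcl9. Cells with both were deeper (median 6090.5 UMIs) than cells with neither (4556). Ccl2 and Ccl12, neighbours in the same chemokine cluster, were found together in 264 cells, 87.4% of those with Ccl2 and 52.3% of those with Ccl12.

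Inflammatory cytokine genes were higher in 6 of 18 measured cases by 2-fold (2.58% over all genes). Tnf was at 427 and 130 CPM in interferon-high and sum-at-0 cells (1.71) and Il15, which sustains NK and memory T cells, at 77.6 and 23.7 CPM (1.67). Il12b, the shared subunit of IL-12 and IL-23, was at 75.6 and 10.9 CPM (2.68) and was held by 57 of the 700 cells, with 19.6% of its UMIs in 1 cell. The inflammasome cytokine gene Il1b was at 1259 and 1388 CPM (-0.14). The immediate early list, the heat shock list and the hypoxia and glycolysis list had no member past 2-fold in either direction, with medians of -0.05, 0.14 and -0.01. The lipid-associated macrophage list had a median of -0.24, with Apoe at 28118 and 28349.7 CPM (-0.01) and Trem2 at 355 and 427 CPM (-0.26). Of 12 measured genes of the complement list, Cfb and C3 were the members at least 2-fold higher (1.11 and 1.72). A further 3 were at least 2-fold lower (2.58 and 0.584% over all genes).

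The lower genes include some that few cells held and others found in many cells of both groups. Lyz1, a lysozyme gene, was at 18.8 CPM in interferon-high and 124 CPM in sum-at-0 cells (-2.66), the eotaxin gene Ccl24 at 13.1 and 62.3 CPM (-2.17), the coagulation factor gene F13a1 at 33.1 and 123 CPM (-1.87) and Retnla, a marker of alternative macrophage activation, at 523 and 1682 CPM (-1.68). Ccl6 (587 and 1443 CPM), fibronectin Fn1 (84.7 and 196 CPM), Pf4 (144 and 324 CPM), Vim (242 and 528 CPM) and Crip1 (439 and 907 CPM) had ratios of -1.30, -1.20, -1.17, -1.12 and -1.05, and Cbr2, Fcna, Lmna, C5ar1, Ahnak and Dab2 lay between -1.41 and -0.95. Of 16 measured genes of the resident macrophage list, 7 were at least 2-fold lower (0.584% over all genes) and none 2-fold higher, with 2 higher by less (median -0.74). The 7 included the hyaluronan receptor gene Lyve1 (6.92 and 38.3 CPM, -2.31) and the lectin gene Cd209f (8.65 and 38.7 CPM, -2.04). Mrc1, which encodes CD206, was at 87.2 and 136 CPM (-0.64). Lyz1, Ccl24, F13a1, Retnla, Fcna and Fn1 were each held by under 10% of cells in both groups, whereas Ccl6 was held by 60% of cells in each, Pf4 by 31.3% of interferon-high and 31.4% of sum-at-0 cells and Vim by 26.3 and 31.0%. Along the 8 bins Retnla was at 1682, 1347, 974, 520.0, 748, 564, 119 and 0 CPM.

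A Retnla UMI was held by 24 of 700 interferon-high cells (3.43%) and 165 of 2105 sum-at-0 cells (7.84%). In interferon-high cells these 24 held 74 of 76 Lyz1 UMIs and 49 of 53 Ccl24 UMIs, and in sum-at-0 cells the 165 held 1087 of 1156 and 547 of 581. They held much less of others: 113 of 581 Pf4, 177 of 978 Vim and 31 of 226 C5ar1 UMIs of the interferon-high cells. Within the Retnla-holding cells both kinds of gene still differed: Ccl12 was at 2109 CPM in the 24 interferon-high and 333 CPM in the 165 sum-at-0 cells, Cxcl10 at 764 and 6.26 CPM, and Irf7 at 839 and 126 CPM. The lower genes were lower there too, with Lyz1 at 374 and 1135 CPM, Ccl24 at 248 and 571 CPM, Lyve1 at 101 and 331 CPM, Pf4 at 571 and 1493 CPM and Vim at 895 and 2081 CPM. With Retnla-holding cells left out of both groups, a setting chosen after these values were seen, 11 genes were at least 2-fold lower, 10 of them among the 47, while 214 were at least 2-fold higher, 199 of them among the 208. Of the 47, 29 stayed past the 100-UMI filter, 19 of them lower by less than 2-fold, and 18 fell under it. Of those 18, 11 were still at least 2-fold lower, Lyz1 among them at 0.519 and 8.24 CPM (-2.60) in interferon-high and sum-at-0 cells.

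**Figure D4:**
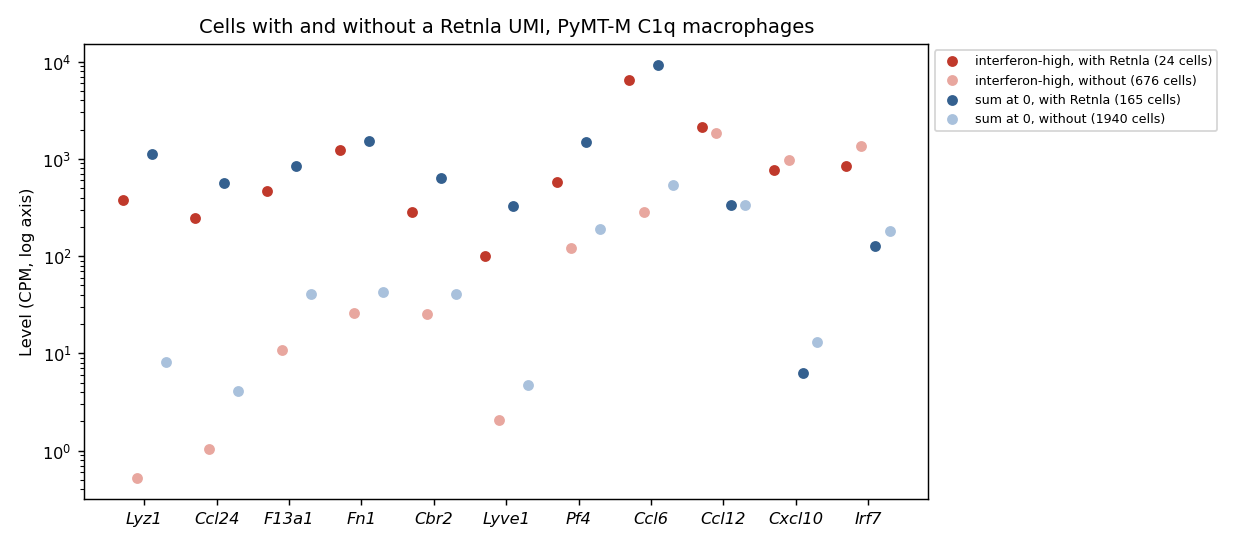
Level (CPM, log axis) of 11 genes in interferon-high cells with (24) and without (676) a Retnla UMI and in sum-at-0 cells with (165) and without (1940) one. Lyz1, Ccl24, F13a1, Fn1 and Lyve1 are far higher in cells with Retnla than in cells without and are also lower in interferon-high than in sum-at-0 cells on both sides (F13a1 at 465 and 844 CPM with Retnla, 10.9 and 41.0 CPM without), while Ccl12, Cxcl10 and Irf7 are higher in interferon-high cells on both sides.

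The interferon-high cells were not gathered in 1 region of the macrophage population. When the 4919 cells were clustered without 114 genes, every one of the 11 clusters held some. The 114 were the sum's genes and the type I effector, ISG15 conjugation, Irf and Stat, sensor and interferon gamma lists. Cxcl10, Ccl12 and Ifi47 were not left out, so the clustering was not free of interferon-responsive genes. The smallest clusters held 1 of 14 and 4 of 25 cells, the latter led by the epithelial list gene Wfdc18. A cluster of 83 cells led by Gzma and Gzmb held 8. The highest share was 22.7% (20.02 to 25.5%) in a cluster of 926 cells led by Il12b, Ccl4 and Tnf, which held 210 of the 700. A cluster of 359 cells led by Pclaf and Stmn1, genes of DNA replication and proliferation, had 18.9% (15.02 to 23.4%). Its cells were shallow (median 2040 UMIs), and in such cells few UMIs reach the threshold. The part of depth in its share was not tested. Its pooled 6-gene sum was 8.32 per 10000, against 8.37 over all C1q macrophages and 14.6 in the cluster led by Il12b. A cluster of 620 cells led by Fabp5, with a median of 2059.5 UMIs, had a share of 11.6% (9.20 to 14.4%). Shares were lower in the cluster led by Retnla, Fn1 and F13a1 (10.0% of 550 cells, 7.62 to 12.8%) and in that led by S100a9 and Il1b (7.84% of 804 cells, 6.07 to 9.91%). Within the cluster led by Il12b, the 210 interferon-high cells were set against the 278 sum-at-0 cells. The log2 ratios were 2.84 for Ccl12, 6.04 for Cxcl10, 3.18 for Irf7, 2.13 for Ccl2, 2.04 for Il12b, 0.34 for Ccl4 and 0.18 for Ccl3. Il12b, Ccl4 and Ccl3 are among the genes that lead this cluster. Their ratios within it therefore cannot be set against those over all cells.

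**Figure D5:**
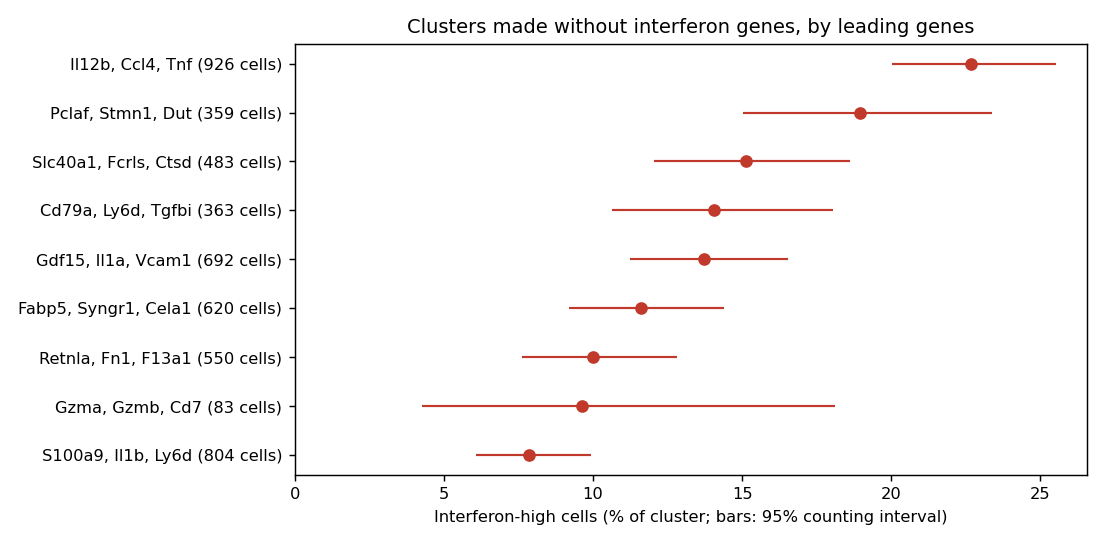
Share of interferon-high cells (%, with 95% counting intervals) in the 9 clusters of at least 50 cells, made without 114 listed genes and listed by leading genes. Cxcl10, Ccl12 and Ifi47 were not among the genes left out. The cluster led by Il12b, Ccl4 and Tnf is at 22.7% and the cluster led by S100a9 and Il1b at 7.84%.

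RNA of other cell types was low but differed between the groups. The summed T and NK cell list was at 25.4 UMIs per 10000 in interferon-high and 9.99 in sum-at-0 cells, most of it Ccl5, which macrophages also express, and a marker of this list other than Ccl5 was held by 34 (4.86%) and 111 cells (5.27%). Gzma, a granule protease gene of NK and T cells, was at 257 and 56.3 CPM and was held by few cells, with 28.6% of its UMIs in interferon-high cells in 1 cell. The epithelial list was at 18.0 and 2.71 per 10000, with 70.6% of the UMIs of its leading gene Wfdc18 in 1 cell, Krt14 at 0, and 19 (2.71%) and 55 cells (2.61%) at 10 per 10000 or more. Neutrophil genes summed to 2.54 and 1.04, stromal genes to 1.03 and 0.295, B cell genes to 2.83 and 2.45 and dendritic genes to 0.721 and 0.453 per 10000. The monocyte genes Ly6c2 (45.5 and 3.64 CPM, 3.32) and Plac8 (97.1 and 16.6 CPM, 2.48) were higher, although all their UMIs lay in at most 70 of the 700 cells and the list's median was -0.23. The highest doublet scores, 5.98% of barcodes, fell on 36 interferon-high (5.14%) and 51 sum-at-0 cells (2.42%). The part of this RNA in the results was not tested; the type I effector count was 44 without cells carrying T and NK markers, 44 without cells carrying epithelial or stromal markers and 44 without the highest doublet scores.

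Beside the 14.2% of macrophages, the same 6-gene threshold was met by other cells of PyMT-M: 105 of 729 T cells (14.4%, 11.9 to 17.2%), 8 of 43 neutrophils (18.6%, 8.39 to 33.4%) and 11 of 177 epithelial cells (6.21%, 3.14 to 10.8%). After thinning to 1000 UMIs, with 2 UMIs of the 6 genes required, the shares were 15.2% in macrophages, 15.3% in T cells, 13.2% in neutrophils and 6.92% in epithelial cells. Shares in macrophages and T cells therefore differed by less than their counting intervals.

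Interferon-high cells were 14.2% of the C1q macrophages of PyMT-M, against 12 of 500 (2.40%, 1.25 to 4.15%) in the PyMT-N library, which the rule did not use. The sum was at 0 in 42.8% of C1q macrophages in PyMT-M and 79% in PyMT-N. These are 1 library per line, so the difference between lines has no replicate check. The 12 PyMT-N cells, with 61562 UMIs in all, repeated the direction of most higher genes. Of 2216 genes past the filter there, 109 (4.92%) were at least 2-fold higher than in the 395 sum-at-0 cells and 294 (13.3%) at least 2-fold lower. Among genes past the filter in both libraries, 25 were higher by 2-fold or more in PyMT-M, and 19 of these reached 2-fold in PyMT-N and 22 were higher by any amount. Of the 14 lower ones, 2 were at least 2-fold lower and 5 lower by any amount. Ccl12 was at 1949 CPM in interferon-high and 507 CPM in sum-at-0 cells of PyMT-N (1.94), where 9 of the 12 cells and 148 of the 395 held it. Irf7 was at 1852 and 65.1 CPM (4.81) and Ifitm3 at 3963 and 606 CPM (2.71). Cxcl10, at 780 and 11.9 CPM (5.91), rested on 48 UMIs in 3 of the 12 cells. Ccl3 and Ccl4 were not higher there, at 97.5 and 307 CPM (-1.64) and 780 and 934 CPM (-0.26). In the 12 cells Ccl4 rested on 48 UMIs and Ccl3 on fewer, and the difference from PyMT-M was not tested. The type I effector list summed to 278 per 10000 in interferon-high and 55.5 in sum-at-0 cells of PyMT-N, with 10 of 12 measured members at least 2-fold higher.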

How the data were processed

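The authors deposited raw UMI counts by gene and barcode for each of 2 libraries, 1 matrix each, not normalised. Per the file headers, software version 3.1.0 made it. Cell Ranger, Seurat and the mm10 build are named in the submitters' processing notes, and their versions are not given there. Totals were 43977988 UMIs in PyMT-M (median 5069.5 per barcode) and 14907736 in PyMT-N (median 1955).

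Members and gene lists were chosen with earlier results of these data known. UMIs were summed per group of cells and given as CPM, with log2 ratios at a pseudocount of 1 CPM for genes with at least 100 UMIs. Single-gene values under alternative settings were given without this limit. Intervals (95%) are exact Poisson, Clopper-Pearson or conditional binomial, tested on simulated data, and they cover counting error only. Of the genes outside the rule with 50 CPM in the higher group and 1.5-fold, up to 15 per direction with the largest ratio are named; predicted, haemoglobin, T cell receptor, immunoglobulin, ribosomal and mitochondrial genes are left out. From each list up to 4 genes by level and ratio are named, and the other members given were chosen after their values were seen. Scrublet's automatic threshold marked 0 cells, so doublets were kept in the main groups, and the 447 highest scores were left out as an alternative. Clusters used the Leiden method at resolution 1 on 2000 variable genes, 30 components and 15 neighbours. Python 3.11.15, numpy 2.4.6, scipy 1.17.1, pandas 2.3.3, scanpy 1.11.5, anndata 0.12.19, scikit-learn 1.9.0, matplotlib 3.10.9, igraph 0.11.9 and leidenalg 0.10.2 were used. Near-identical genes (Ifit3 and Ifit3b, Oas1a and Oas1g) can share reads, and their levels are uncertain.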

Additional observations from a re-analysis of the deposited data

Results flagged for a closer look

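Retnla ran in opposite directions in the 2 libraries. In PyMT-M it was at 523 CPM in interferon-high and 1682 CPM in sum-at-0 macrophages (log2 ratio -1.68), and in PyMT-N at 4873 CPM in interferon-high and 1011 CPM in sum-at-0 macrophages (2.27). Of the 300 Retnla UMIs in the 12 interferon-high cells of PyMT-N, 278 (92.7%) were in 1 cell and 3 cells held any. The difference between the libraries was not tested.

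Crip1 did the same, at 439 CPM in interferon-high and 907 CPM in sum-at-0 macrophages of PyMT-M (log2 ratio -1.05), and at 2209 CPM in interferon-high and 1103 CPM in sum-at-0 macrophages of PyMT-N (1.00). In PyMT-N, 8 of the 12 interferon-high cells held Crip1 and 46.3% of its 136 UMIs were in 1 cell. This difference was not tested either.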

How the results depend on the processing

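The type I effector count stayed between 37 and 46 over all 16 alternatives, against 44. The count of higher genes (208) was 402 with a filter of 1 UMI and 128 within the 1 cluster led by Il12b, and 151 to 305 otherwise. The count of lower genes (47) moved most: 118 with the threshold at 25, 81 in cells of 4000 to 8000 UMIs, 18 with a pseudocount of 10 CPM, 104 and 135 with filters of 20 and 1 UMI, 140 with groups set by Isg15 alone, 75 with per-cell means, 21 within 1 cluster and 11 without Retnla-holding cells, where 18 of the 47 fell under the filter. Within the 1 cluster, where 3187 genes passed the filter, only 1 of the 21 lower genes was among the 47. Of the 128 higher genes there, 106 were among the 208. The share of 14.2% was 16.9% after thinning to 2000 UMIs, 19.5% with the threshold at 10 and 8.58% at 25. Of 1024 values of 64 genes, the 2 filters cannot change 128. Of the other 896, 562 moved by less than their counting interval, 313 moved further and 21 changed sign. A sign change is counted and listed here only for genes at least 2-fold different in the main groups. Smaller ratios that crossed 0 are within the other counts, such as Apoe at 0.060 with the threshold at 25 (-0.01 in the main groups). Sign changes of log2 ratios were, with the threshold at 25, Igfbp7 -0.54 and Wfdc18 -0.53; in cells of 4000 to 8000 UMIs, Clu -0.050, Igfbp7 -0.83, Gzma -5.28 and Gzmb -3.01; with Isg15 alone, Clu -0.29, Igfbp7 -0.34 and Lcn2 -0.81; without the highest doublet scores, Gzma -2.57 and Gzmb -2.87; with the C1q gate at 100, Wfdc18 -0.20. Within 1 cluster they were Ccl24 0.89, Cbr2 1.44, Fcna 1.44, Pf4 1.48 and Plac8 -0.83. Without cells carrying epithelial or stromal markers they were Igfbp7 -1.06, Lcn2 -0.47 and Wfdc18 -0.13, and without those carrying T and NK markers, Igfbp7 -0.35. Single-gene values under the alternatives were not held to the 100-UMI filter. Some can rest on very few UMIs, as with the identical values of Cbr2 and Fcna within 1 cluster. The cause of the sign changes was not tested. The settings without T and NK, epithelial or stromal, or Retnla-holding cells were chosen after seeing the data. No paired analysis was possible because each line has 1 library. Depth limits what a gene under 100 UMIs or a cell under 2000 UMIs can show.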
